A study of Homo sapiens with 5 samples.

Results

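Peaks beside centromeres are the methylated DNA peaks that flank the unassembled centres of the chromosomes in the human assembly hg19. They were chosen by position alone: a peak belonged if it started between 2 Mb before and 5 Mb after the start of the centromere gap of chromosome 1, 2, 3, 5, 6, 7, 8, 9, 10, 11, 12, 16, 17, 18, 20 or 21. The 16 windows held 598 of the 23350 deposited peaks (2.56%). Peaks that overlapped between libraries, by 1 bp or more, formed merged regions, and 259 of the 11260 merged regions (2.30%) lay beside a centromere.

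The peaks come from MeDIP-seq, the sequencing of immunoprecipitated methylated DNA, which pulls down DNA fragments with an antibody against 5-methylcytosine. All 5 libraries were made from K562, an established cell line from a chronic myeloid leukaemia. The mutated group comprised 3 lines, MT1, MT2 and MT4, in which the DNA methyltransferase gene DNMT3A had been mutated by CRISPR/Cas9 editing. The wild-type group comprised 2 cultures, a bulk culture and a transfected one. The labels speak of clones, do not name the mutated bases and are silent on whether MT1, MT2 and MT4 were edited independently, so a p-value between the groups measures only the spread between these libraries. The wild-type cultures differ from each other in their history, and such differences cannot be told apart from genotype here.

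Human centromeres are built on long arrays of alpha satellite, a tandem repeat on which the kinetochore assembles. The flanking heterochromatin carries other satellite families and recently duplicated segments, and hg19 leaves the arrays themselves largely as gaps. Where an assembly holds few copies of a repeat, reads from many genomic copies align to the few copies present. Satellite DNA is densely methylated in most adult tissues. DNMT3A and DNMT3B set new methylation and DNMT1 copies it at replication. Inherited loss of DNMT3B function leaves the satellites beside the centromeres of chromosomes 1, 9 and 16 undermethylated in the syndrome known as ICF.

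Each peak carried a score from the authors' peak caller, from 90 upwards in every list. Each list may have its own scale, so scores were compared between peaks of the same list, and a site without a peak did not reach that limit. A mean of score differences over lists, or a score limit common to all lists, would then mix these scales. Lists held 2842 peaks in MT1, 1426 in MT2 and 8399 in MT4, against 6213 in wild-type bulk and 4470 in wild-type transfected cells. List lengths did not sort by genotype, since the longest and both shortest lists were mutated, and longer lists hold more weak peaks. Read depth is unknown and whether an input was sequenced is not given in the sources used here, so a score cannot be read as a methylation level.

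MT4 had the most peaks beside centromeres, 198, and MT2 the fewest, 49. MT1 had 70, wild-type bulk 159 and wild-type transfected cells 122. As a share of the list this was 2.46% in MT1 (95% Wilson interval 1.95 to 3.10%), 3.44% in MT2 (2.61 to 4.51%) and 2.36% in MT4 (2.05 to 2.70%), against 2.56% in wild-type bulk (2.19 to 2.98%) and 2.73% in wild-type transfected cells (2.29 to 3.25%). The mutated lines lay on both sides of the wild-type cultures. On average the share was 2.75 ± 0.595% in mutated (SD, n = 3) and 2.64 ± 0.120% in wild-type libraries (SD, n = 2), a difference of 0.108 percentage points (exact permutation test over libraries, two-sided, p = 1). The smallest p this design allows is 0.2. Without MT2 the difference was -0.234 percentage points, so its sign rested on that library, and it was 0.0229 without wild-type bulk. Wilson intervals cover counting error only.

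Most of the length of the windows was empty. The longest stretch without a peak of any library that met a window ran from 3.01 to 21.0 Mb (median 4.12 Mb), and these stretches filled 63.0% of the windows' length. Between 1 and 3 Mb after the gap start there was 1 peak in all, in MT4. Summed over windows, more members lay before the stretch than after it, with 54.3% of the members before it in MT1, 61.2% in MT2 and 59.6% in MT4, against 55.3% in wild-type bulk and 57.4% in wild-type transfected cells. This varied by window. In 4 windows with peaks none lay after the stretch. These were chromosomes 1, 6, 9 and 16, where the stretch outran the window and no member could lie after it. On chromosome 3 the stretch began before the window, so no member could lie before it. The sides therefore partly reflect where the windows begin and end. Chromosome 21 alone held 84 before the stretch and 18 after. Chromosomes 3, 5, 10, 17, 18 and 20 had more peaks after it, for example 3 before and 64 after on chromosome 10. The 28 peaks in the first Mb after the gap start all lay within 0.028 Mb of it, on chromosomes 2 and 8, since the gap starts of the rule are rounded. MT4, the longest list, had 3 of these 28 peaks. MT1 and MT2 had 6 each, wild-type bulk 6 and wild-type transfected cells 7.

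**Figure D1:**
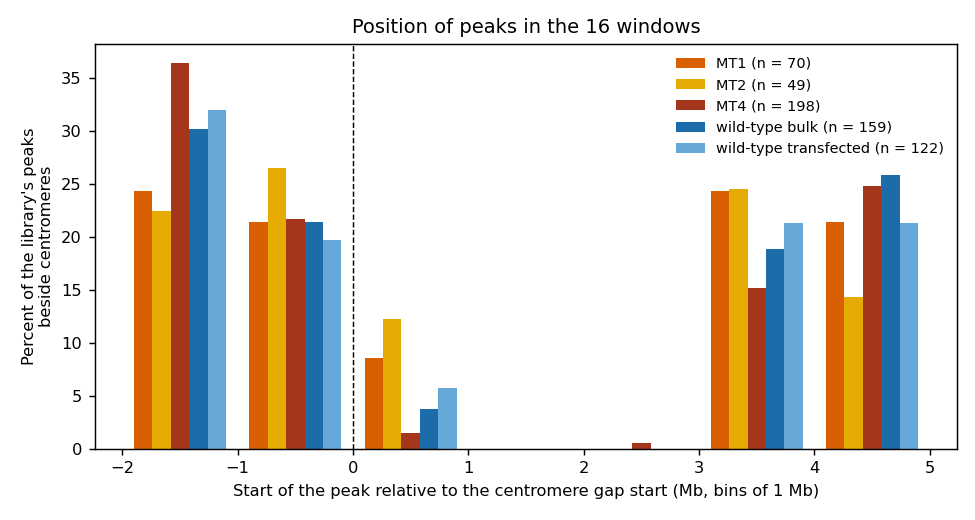
Percent of each library's peaks beside centromeres (y axis) by the start of the peak relative to the gap start, in bins of 1 Mb (x axis), over all 16 windows; colours are the 5 libraries with their number of such peaks. Peaks lie on both flanks, with 1 peak between 1 and 3 Mb. MT4 has the smallest percentage in the first Mb after the gap start (1.52%, against 3.77 to 12.2% in the other libraries). These are 3 peaks in MT4 and 6 or 7 in each other library, and the percentage falls as the list gets longer.

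Over whole windows the density of peaks was lower than on the rest of the same 16 chromosomes. It was 0.626 peaks per Mb in MT1, 0.438 in MT2, 1.77 in MT4, 1.42 in wild-type bulk and 1.09 in wild-type transfected cells, while the rest of the chromosomes held 1.05, 0.522, 3.21, 2.27 and 1.63 peaks per Mb in the same libraries. The mean difference was -0.669 ± 0.512 peaks per Mb (SD, n = 5), with the same sign in 5 of 5 libraries (exact sign-flip permutation test over libraries, two-sided, p = 0.062, the smallest possible with 5 libraries). The direction turned when the peak-free stretches were left out of the windows: the remaining 41.4 Mb held 1.69, 1.18 and 4.79 peaks per Mb in MT1, MT2 and MT4 and 3.84 and 2.95 in wild-type bulk and transfected cells, a mean difference of 1.15. Leaving out stretches because they hold no peak raises a density by construction. Windows laid over assembly gaps, where no read can align, lower it by construction. Neither sign therefore describes the sequence beside the gaps. Most peaks of each library overlap a peak of another library, so the 5 differences are not independent.

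The windows were filled unevenly. Chromosome 21 held 102 member peaks, chromosome 8 held 92, chromosome 10 held 67, chromosome 17 held 64 and chromosome 2 held 59. These 5 windows together held 384 of the 598 member peaks (64.2%). The window of chromosome 11 had no peak in any library, and those of chromosomes 3, 5, 6, 9 and 12 had 5 to 11. Chromosomes 9 and 16, which with chromosome 1 carry the largest blocks of satellite heterochromatin, had 5 and 13 peaks. Chromosome 1 had 54, all before the stretch. The peak-free stretches were 18.4 Mb long on chromosome 9, 11.6 Mb on chromosome 16 and 21.0 Mb on chromosome 1. Each ran past the end of its window, so no member could lie after it. Sequence missing from hg19 can hold no peak, so these counts do not measure methylation of the satellite blocks. On chromosome 21 MT1 had 10 peaks, MT2 had 9 and MT4 had 37, against 27 in wild-type bulk and 19 in wild-type transfected cells. On chromosome 9 MT4 had no peak, while MT1 and MT2 had 1 each, wild-type bulk 1 and wild-type transfected cells 2.

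The share of a list lying in a window was separated by genotype, with all mutated libraries on one side of both wild-type cultures, in 4 of the 16 windows (25%). The same held for 82 of 425 bins of 7 Mb tiled over the genome (19.3%), so the windows stood near the background. Chromosome 5 and chromosome 18 were higher in the mutated lines (2 of 16 windows, 12.5%; 8.24% of bins), and chromosomes 16 and 20 were lower (2 of 16; 11.1% of bins). The chromosome 20 shares were 0.106, 0.140 and 0.155% in MT1, MT2 and MT4 and 0.177 and 0.201% in wild-type bulk and transfected cells. On chromosome 16 neither MT1 nor MT2 had a peak, MT4 had 5 and each wild-type culture had 4. On chromosome 18 the mutated lines had 4, 3 and 13 peaks and the wild-type cultures 8 and 6. No window passed the test, with exact permutation p-values from 0.2 to 1 and at least 0.8 after Benjamini-Hochberg adjustment over the 16 windows. Without MT1, 7 windows were separated.

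**Figure D2:**
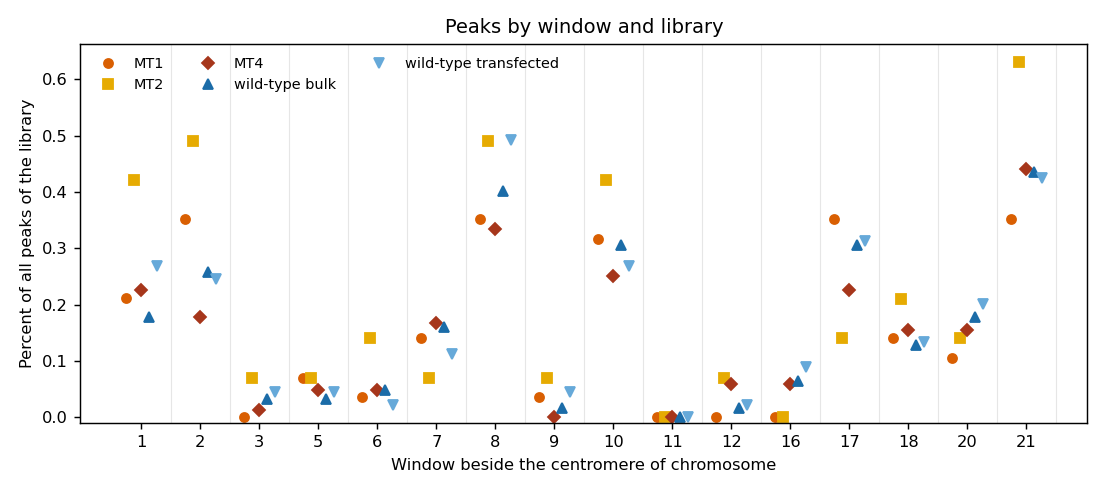
Percent of all peaks of a library (y axis) that lie in the window beside the centromere of each chromosome (x axis); each point is 1 library, and mutated lines are drawn left of wild-type cultures. The windows of chromosomes 21, 8, 10, 17 and 2 hold the most peaks, chromosome 11 holds none, and in most windows the mutated and wild-type points overlap.

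Peaks beside centromeres scored higher than the other peaks of their list. The median score was 146.5 beside centromeres against 117.0 elsewhere in MT1, 130.9 against 110.4 in MT2, 127.0 against 123.2 in MT4, 132.5 against 125.6 in wild-type bulk and 133.5 against 120.8 in wild-type transfected cells. The difference had the same sign in 5 of 5 libraries and averaged 14.7 ± 10.5 score units (SD, n = 5; exact sign-flip permutation test, two-sided, p = 0.062, the smallest possible). On the rank scale, the median member stood at percentile 75.6 of its list in MT1, 73.4 in MT2 and 53.6 in MT4, against 55.8 in wild-type bulk and 59.98 in wild-type transfected cells. Mutated and wild-type lists averaged 67.5 ± 12.2 (SD, n = 3) and 57.9 ± 2.94 (SD, n = 2), means that differed by less than the spread between the mutated lines (exact permutation p = 0.6). The difference of 9.63 percentile points was 5.59 without MT1 and 16.6 without MT4. It was 19.5 with every list limited to its 1426 best-scoring peaks (exact permutation p = 0.2, the smallest possible). The median member then stood at percentile 72.1 in MT1, 73.4 in MT2 and 75.7 in MT4. These lay above both wild-type cultures, with 57.9 in wild-type bulk and 50.6 in wild-type transfected cells.

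The first quartile of the score was also higher beside centromeres in 5 of 5 libraries, most in MT1, with 117.8 against 101.2 elsewhere. In the others the gap was small: 100.6 against 98.4 in MT2 and 106.3 against 102.8 in MT4. Wild-type bulk had 105.9 against 103.3 and wild-type transfected cells 103.8 against 102.4. The median difference averaged 13.0 without the peaks at the highest score of each list. In wild-type transfected cells this left out 1 peak, at 3202, and kept those at 3100. Among the peaks in the top 1% of scores, those beside centromeres made up 41.4% in MT1 (12 of 29; 95% Wilson interval 25.5 to 59.3%), 33.3% in MT2 (5 of 15; 15.2 to 58.3%) and 10.7% in MT4 (9 of 84; 5.74 to 19.1%), against 19.0% in wild-type bulk (12 of 63; 11.2 to 30.4%) and 26.7% in wild-type transfected cells (12 of 45; 15.96 to 41.0%). In each library this exceeded the share of such peaks in the whole list, by 23.5 ± 11.8 percentage points on average (SD, n = 5; exact sign-flip permutation p = 0.062). A top percentile holds more peaks in a longer list, so these shares are not comparable between libraries.

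**Figure D3:**
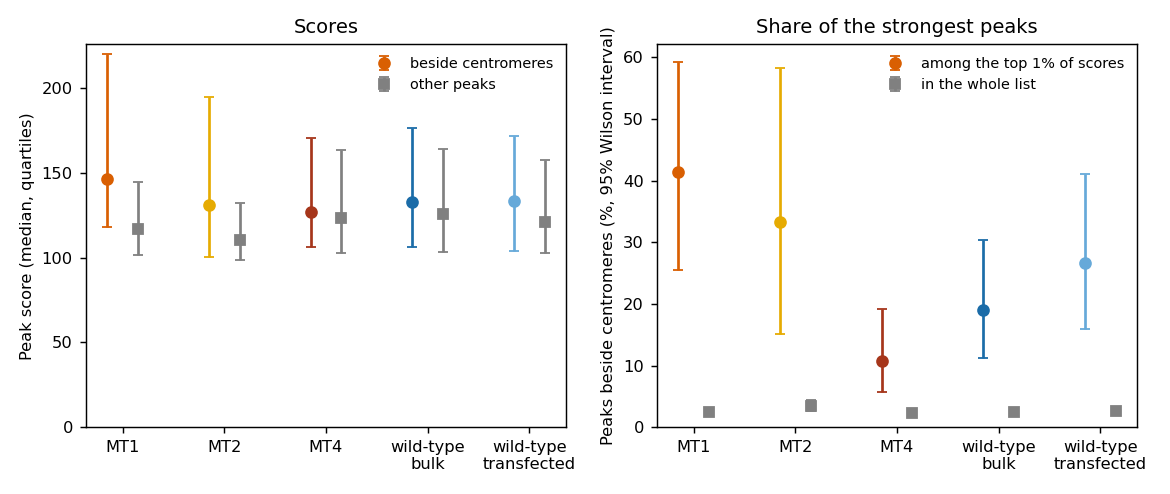
Left, median score with quartiles of peaks beside centromeres (coloured circles) and of the other peaks (grey squares) in each library; right, peaks beside centromeres as a percent of the top 1% of scores (coloured circles) and of the whole list (grey squares), with 95% Wilson intervals. Members score higher in all 5 libraries, and they make up 10.7 to 41.4% of the strongest peaks against 2.36 to 3.44% of the lists.

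Of the regions common to all 5 libraries, 2 tied at a score of 3100 in each of them, chromosome 21 from 9825246 to 9827935 and chromosome 7 from 61967995 to 61971328. In MT1, MT2, MT4 and wild-type bulk 3100 was the highest score of the list, and more than 1 peak tied at it. Of the peaks at the highest score of their list, 3 of 4 lay beside a centromere in MT1, 2 of 2 in MT2, 2 of 3 in MT4, 2 of 3 in wild-type bulk and 1 of 1 in wild-type transfected cells. That last peak scored 3202, above the members at 3100 on chromosomes 21, 7 and 6 of the same list. On chromosome 6 the region from 58775437 to 58779629 ended at the edge of its peak-free stretch. It scored 3100 in MT1, 2235 in MT2 and 1686 in MT4, against 2787 in wild-type bulk and 3100 in wild-type transfected cells. The region on chromosome 1 from 121482318 to 121485637, also at the edge of its stretch, scored 1558 in MT1, 1490 in MT2 and 1870 in MT4, against 3000 in wild-type bulk and 3202 in wild-type transfected cells. The 3202 was the highest score of the list of wild-type transfected cells. Scores at a single site were not compared between libraries, because each list may have its own scale.

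Of the next 6 common regions by mean score percentile, 1 was on chromosome 10 (42596669 to 42598855) and 1 on chromosome 8 (46848864 to 46850338). Chromosome 2 held 2 of them (92322932 to 92326063 and 92312535 to 92313316), and so did chromosome 21 (10084785 to 10087424 and 9695272 to 9697029). Their mean percentiles ran from 99.2 down to 97.7. Both chromosome 2 regions lay within 0.013 Mb of a peak-free stretch and the one on chromosome 8 within 0.008 Mb. Those on chromosome 21 lay more than 1 Mb away from it.

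**Figure D4:**
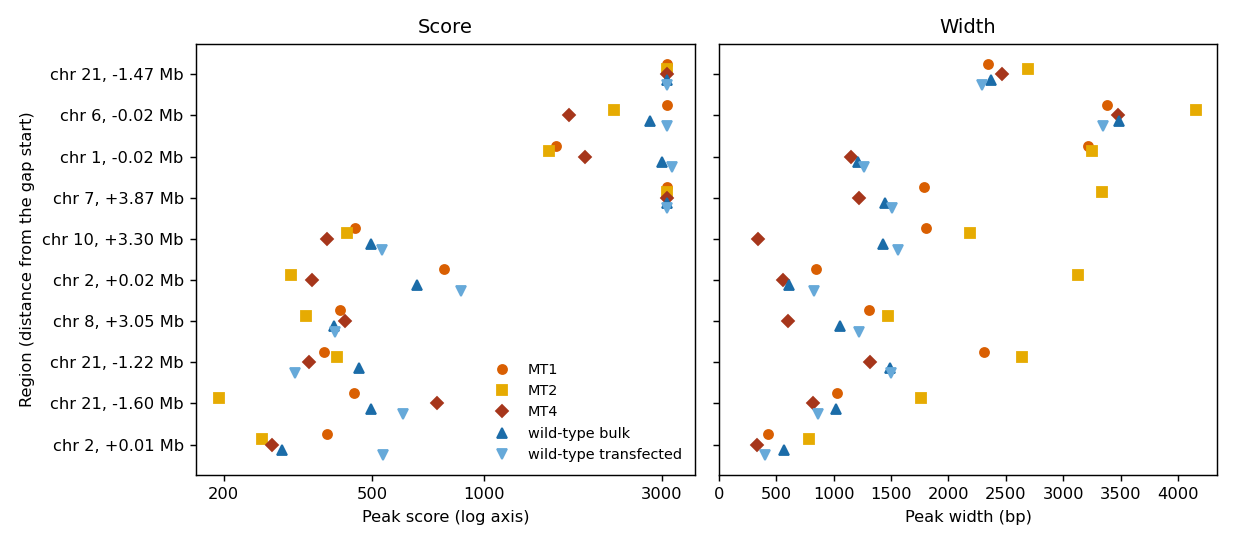
Score (left, log axis) and width (right, bp) of the strongest peak of each library in the 10 highest-ranked regions common to all 5 libraries, named by chromosome and by distance from the gap start in Mb. MT4 (dark red diamonds) has the narrowest peak in 8 of the 10 regions, for example 340 bp on chromosome 10, where the other libraries have 1429 to 2187 bp.

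Peaks beside centromeres were narrower than other peaks. The median width was 1174 bp beside centromeres against 1337 bp elsewhere in MT1, 1681 against 1795 bp in MT2, 1011.5 against 1087 bp in MT4, 1152 against 1258.5 bp in wild-type bulk and 1041.5 against 1187 bp in wild-type transfected cells. The mean difference was -120.9 ± 34.3 bp (SD, n = 5), negative in 5 of 5 libraries (exact sign-flip permutation p = 0.062, the smallest possible). It shrank to -24.9 bp (p = 0.4375, exact) with windows from 5 Mb before to 8 Mb after the gap start, and grew to -261.6 bp with windows from 1 Mb before to 4 Mb after it. Between genotypes the member medians averaged 1289 ± 349 bp in mutated (SD, n = 3) and 1097 ± 78.1 bp in wild-type libraries (SD, n = 2), a difference of 192 bp (exact permutation p = 0.8). The difference was -4.0 bp without MT2, the library with the widest peaks.

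Member regions were shared between libraries somewhat more often than other regions. A peak in all 5 libraries was found in 28 of 259 member regions (10.8%; 95% Wilson interval 7.59 to 15.2%), against 7.34% of other regions. A peak in a single library was found in 120 (46.3%; 40.4 to 52.4%), against 49.98% of other regions. Per peak, 94.3% of the members in MT1, 100% in MT2 and 63.6% in MT4 overlapped a peak of another library, against 92.2, 94.9 and 59.6% of the other peaks in the same lines. In wild-type bulk the shares were 82.4% of members and 78.1% of other peaks, and in wild-type transfected cells 86.9% of both. The mean difference was 3.10 ± 2.08 percentage points (SD, n = 5), positive in 4 of 5 libraries (exact sign-flip permutation p = 0.125; 6.10 without MT4, 5.41 without wild-type bulk). The share of peaks lying in regions common to all 5 libraries differed by 5.36 ± 4.88 percentage points, with MT2 the exception (exact sign-flip permutation p = 0.125; 12.4 without MT4, 2.93 without MT1, 2.20 without MT2, 3.04 without wild-type transfected cells). Neither difference passed the test.

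Of the 120 regions held by 1 library, 4 belonged to MT1, none to MT2, 72 to MT4, 28 to wild-type bulk and 16 to wild-type transfected cells. The order followed the length of the lists, and MT4 held 60.3% of the other regions found in a single library, close to its 72 of 120 here.

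Recovery in a library is the percentage of regions already found by 2 or more of the remaining 4 libraries in which that library had a peak too. It was 44.9% of member regions in MT1 (61 of 136; 95% Wilson interval 36.8 to 53.2%), 34.1% in MT2 (47 of 138; 26.7 to 42.3%) and 86.5% in MT4 (96 of 111; 78.9 to 91.6%), against 89.5% in wild-type bulk (102 of 114; 82.5 to 93.9%) and 70.6% in wild-type transfected cells (89 of 126; 62.2 to 77.9%). Other regions were recovered at 43.3% in MT1, 22.7% in MT2, 83.6% in MT4, 80.7% in wild-type bulk and 63.3% in wild-type transfected cells. The difference averaged 6.36 ± 4.09 percentage points (SD, n = 5), positive in 5 of 5 libraries (exact sign-flip permutation p = 0.062), but it did not hold up under other settings. It was -0.29 without wild-type bulk, 2.08 without MT4, and 4.201 without wild-type transfected cells. With lists of equal length it was 2.59, positive in 3 of 5 libraries (exact p = 0.625). Between genotypes member recovery averaged 55.1 ± 27.7% in mutated (SD, n = 3) and 80.1 ± 13.3% in wild-type libraries (SD, n = 2), a difference of -24.9 points (exact permutation p = 0.4). Other regions differed by -22.1 points (exact permutation p = 0.6), and at equal list length the difference at member regions was -8.83 points. Without MT2 it was -15.2 points, and without MT4 it was -41.3 points.

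No member region was held by MT1, MT2 and MT4 and missed by both wild-type cultures, where 0.071% of all regions did (8 of 11260). Both wild-type cultures, but none of the mutated lines, held 5 of 259 member regions (1.93%), against 2.74% of all regions. On chromosome 21 this was the region from 10201023 to 10201656, on chromosome 17 those from 26603083 to 26603781 and from 26873938 to 26875290, on chromosome 20 that from 30220009 to 30221440, and on chromosome 16 that from 33572906 to 33573956. They were weak, with mean score percentiles between 13.3 and 27.9 and scores from 90.65 to 125.6. The number held by exactly one genotype, 5 in all, was 7 without MT1, 8 without MT2, 35 without MT4, 21 without wild-type bulk and 33 without wild-type transfected cells. Fewer libraries are easier to satisfy.

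MT4 lacked a peak in 5 of the 33 member regions held by all 4 other libraries (15.2%; 95% Wilson interval 6.65 to 30.9%), where it lacked 3.24% of all such regions (28 of 863) and 2.77% of those away from centromeres (23 of 830; 1.85 to 4.12%). Of those 23, 12 lay on chromosome 4, a chromosome without a window that held 1.63% of the MT4 list and 4.70 to 5.68% of the other lists, and without it the share was 1.41% (11 of 782; 0.787 to 2.50%). Neither wild-type culture lacked any of its 28 such member regions (upper Wilson limit 12.1%), where wild-type bulk lacked 1.88% and wild-type transfected cells 7.12% of all such regions. MT1 lacked 5 of 33 (15.2%), near its 18.4% over all regions, and MT2 17 of 45 (37.8%), against 51.7%. No test over libraries applies to a single library, and the comparison was chosen after its values were seen.

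All 5 regions that only MT4 lacked lay within 0.027 Mb of a peak-free stretch, and so within 0.1 Mb. Of all 259 member regions 55 lay within 0.1 Mb of a stretch, and of the 28 common to all 5 libraries 8 did. None of the 5 that only MT1 lacked, and 3 of the 17 that only MT2 lacked, lay within 0.1 Mb of one. On chromosome 10 the region from 42384284 to 42388675 held 2 peaks in each of the other libraries. The higher of them scored 706 in MT1 and 263 in MT2, against 278 in wild-type bulk and 576 in wild-type transfected cells, and stood at percentiles 99.6, 97.5, 96.5 and 99.5 of those lists. The nearest peak of MT4 lay 208 kb away and scored 379. The region on chromosome 8 from 43821994 to 43822786 scored 294 in MT1 and 126 in MT2, against 218 in wild-type bulk and 184 in wild-type transfected cells. The region on chromosome 8 from 46841117 to 46842033, across the stretch from it, scored 143 in MT1 and 127 in MT2, against 106 in wild-type bulk and 157 in wild-type transfected cells. MT4 had a peak 6.96 kb beyond this one, with a score of 424.

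The region on chromosome 2 from 92318048 to 92321725 scored 167 in MT1 and 140 in MT2, against 116 in wild-type bulk and 172 in wild-type transfected cells, and MT4 had a peak 3.07 kb from it with a score of 345. On chromosome 9 the region from 47183895 to 47186189 scored 156 in MT1 and 107 in MT2, against 113 in wild-type bulk and 146 in wild-type transfected cells. The nearest MT4 peak on chromosome 9 lay 8563 kb away. The choice of these regions fixes that MT1, MT2 and both wild-type cultures hold them. The number was 8 without MT2, since fewer libraries are then required, and 3 with scores limited to 121.6 or more, the median of all peaks; it was also 5 with every list limited to its 1426 best-scoring peaks, as many as the MT2 list holds.

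Recovery near and far from the stretches includes the 5 regions just described, so it partly restates them. Within 0.1 Mb of a peak-free stretch MT4 recovered 18 of 27 member regions (66.7%; 95% Wilson interval 47.8 to 81.4%), and farther away 78 of 84 (92.9%; 85.3 to 96.7%). MT1 recovered 76.9% near the stretch (20 of 26) and 37.3% farther away (41 of 110), and MT2 55.6% (15 of 27) and 28.8% (32 of 111). Wild-type bulk recovered 85.7% (24 of 28) and 90.7% (78 of 86), and wild-type transfected cells 84.6% (22 of 26) and 67.0% (67 of 100). By value, recovery near the stretch was thus higher in MT1, MT2 and wild-type transfected cells and lower in MT4 and wild-type bulk. The 95% Wilson intervals near and farther away overlapped in MT2 (37.3 to 72.4% and 21.2 to 37.9%) and in wild-type bulk (68.5 to 94.3% and 82.7 to 95.2%). They also overlapped in wild-type transfected cells (66.5 to 93.85% and 57.3 to 75.4%). In MT1 they did not (57.9 to 89.0% and 28.8 to 46.6%), nor in MT4. In MT4 the 5 regions that only it lacked all count as not recovered near the stretch. Its gap therefore partly repeats the choice of those regions. Regions of a library are not replicates, so the intervals cover counting error only. This limit, 0.1 Mb, was set with the values in view. With limits of 0.05, 0.2 and 0.5 Mb the recovery of MT4 near the stretch was 66.7, 72.7 and 78.6%, each below its recovery farther away. The limit of 0.05 Mb counted the same regions as 0.1 Mb. At every limit the 5 regions that only MT4 lacked counted as near, so these limits are no independent check.

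**Figure D5:**
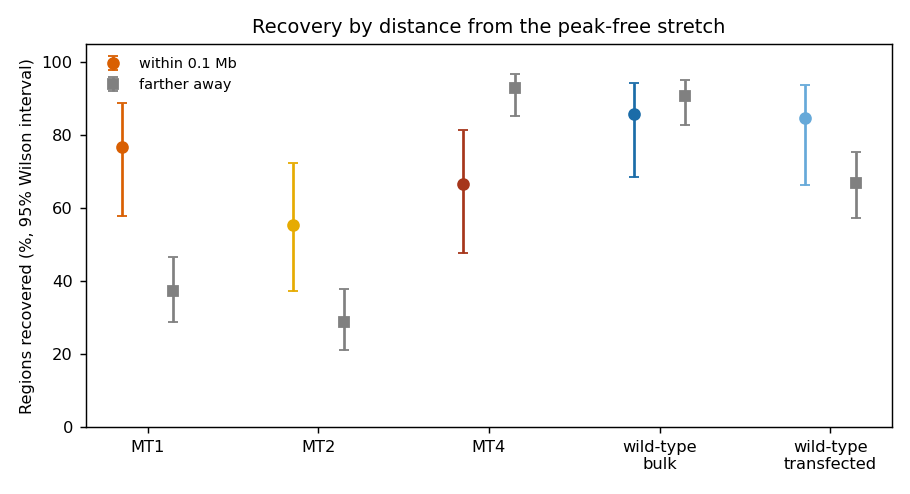
Percent of member regions recovered (y axis, 95% Wilson intervals) in each library, within 0.1 Mb of the longest peak-free stretch of the window (coloured circles) and farther away (grey squares). MT4 recovers 66.7% near the stretch and 92.9% farther away, while MT1, MT2 and wild-type transfected cells recover more near it. The MT4 value near the stretch includes the 5 regions chosen because only MT4 lacked them.

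With every list limited to its 1426 best-scoring peaks, MT4 also had the fewest members, 40, where MT1 had 53, MT2 had 49, wild-type bulk 45 and wild-type transfected cells 52. It then recovered 49.0% of member regions (24 of 49) and 59.8% of other regions. MT1 recovered 68.6 and 60.4%, MT2 63.5 and 56.2%, wild-type bulk 66.7 and 66.8% and wild-type transfected cells 71.7 and 63.4%.

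In the member regions common to all 5 libraries, peaks of MT4 were also narrow. Its peak was the narrowest of the 5 libraries in 17 of the 28 member regions common to all (60.7%), against 24.8% of all 835 common regions. This was noticed after the values were seen. The narrowest peak was in MT1 in 4 of the 28, in wild-type transfected cells in 7, and in MT2 and wild-type bulk in none. Over these 28 regions the median width was 1444.5 bp in MT1, 1721 bp in MT2 and 1005.5 bp in MT4, against 1312 bp in bulk and 1155.5 bp in transfected wild-type cells. Over the other common regions it was 1557 bp in MT1, 1930 bp in MT2 and 1599 bp in MT4, against 1673 bp in bulk and 1530 bp in transfected wild-type cells. In the 8 common regions within 0.1 Mb of a stretch the median was 580 bp in MT4, where MT1 had 1197 bp, MT2 had 1941 bp, wild-type bulk 878.5 bp and wild-type transfected cells 1041.5 bp. In the 20 farther away it was 1131 bp in MT4, where MT1 had 1587.5 bp, MT2 had 1721 bp, wild-type bulk 1454 bp and wild-type transfected cells 1336 bp. MT4 had the narrowest peak in 6 of the 8 and 11 of the 20. On chromosome 10 (42596669 to 42598855) the MT4 peak was 340 bp wide, where MT1 had 1802 bp, MT2 had 2187 bp, wild-type bulk 1429 bp and wild-type transfected cells 1558 bp.

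MT2 was the widest library in 20 of the 28 regions (71.4%), against 67.3% of all common regions. All mutated peaks were wider than both wild-type peaks in 2 of 28 regions (7.14%; 10.8% of all common regions) and narrower in none (1.8% of all common regions). These 2 were on chromosome 20 (26188258 to 26190669) and chromosome 21 (10204086 to 10205430). In the first the mutated lines had 1 peak each, of 1712 bp in MT1, 2407 bp in MT2 and 1958 bp in MT4. Both wild-type cultures had a pair of peaks there, the stronger of 1060 bp in bulk and 1044 bp in transfected cells. The number was 7 without MT1, 8 without MT2, 18 without MT4, 7 without wild-type bulk and 7 without wild-type transfected cells. The medians over the 28 regions averaged 1390 ± 361 bp in mutated (SD, n = 3) and 1234 ± 111 bp in wild-type libraries (SD, n = 2; exact permutation p = 0.8).

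Within the windows, peaks near the stretch ranked higher and were narrower. Within 0.1 Mb the median percentile was 85.8 in MT1, 82.8 in MT2 and 61.0 in MT4, against 62.3 in wild-type bulk and 74.7 in wild-type transfected cells. Members farther away stood at 61.5 in MT1, 65.2 in MT2 and 52.5 in MT4, against 53.8 in wild-type bulk and 58.5 in wild-type transfected cells. The difference was 15.0 ± 6.68 percentile points (SD, n = 5), positive in 5 of 5 libraries, and that in median width -317.6 ± 183.8 bp, negative in 5 of 5 (exact sign-flip permutation p = 0.062 each, the smallest possible). The 0.1 Mb limit was set with the values in view, and these same peaks set the edges of the stretches. With a limit of 0.5 Mb both directions held in every library, but wild-type bulk stood at percentile 57.8 near and 54.2 farther away.

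On chromosome 7, MT1 had 2 member peaks below 60 Mb, MT2 none and MT4 9, against 7 in wild-type bulk and 3 in wild-type transfected cells. Above 60 Mb they had 2, 1 and 5, against 3 and 2. Leaving out this window turned no direction in any planned comparison. At the limits of the windows, the nearest member inside lay on chromosome 16 (33318847 to 33319584, score 117.4 in wild-type bulk), 18.8 kb above the lower limit, and on chromosome 8 (48743456 to 48745132, score 107.6 in wild-type transfected cells), 56.5 kb below the upper one. The nearest peaks outside were on chromosome 8 (41790652 to 41791651, score 122.4 in wild-type transfected cells), 9.35 kb below the lower limit, and chromosome 18 (20519040 to 20519570, score 91.3 in wild-type bulk), 19.0 kb above the upper one.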

How the data were processed

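MeDIP-seq libraries of 3 DNMT3A-mutated and 2 wild-type K562 cultures were analysed, grouped by the genotype in the labels. The authors deposited 1 peak list per library, with a start, an end and a score per peak, and no list of pooled libraries was used. Per the deposited files, MACS is part of every peak name; the submitters' processing notes name Bowtie 1.1.1, edgeR and hg19. How the caller was set, whether an input was used and how the score was computed is not given in the sources used here. Without read counts no count model was fitted.

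Merging, medians, percentiles within a list, recovery and exact permutation tests were computed with pandas 2.3.3, numpy 2.4.6 and scipy 1.17.1 under Python 3.11.15, and tested on simulated lists. Starts are counted from 1. Tests were two-sided, over all 10 assignments of the genotype labels or over sign flips in 5 libraries, and none can pass 0.05. Regions named are the top 10 common ones by mean percentile, those of one genotype, those only MT4 lacked (chosen after their values were seen) and the peaks nearest the window limits. The windows, members and comparisons were chosen with earlier results of these data known. No hg19 sequence or annotation was used, so no genes or sequences are given.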

Additional observations from a re-analysis of the deposited data

How the results depend on the processing

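No test in this design can pass 0.05, so the alternatives bear only on direction and size. The difference between genotypes in the share of peaks beside centromeres, 0.108 percentage points, was -0.0818 with each list limited to its 1426 best peaks and ranged from -0.234 to 0.305 without one library; it kept its sign in the other 8 of 10 alternatives and reached 1.07 with scores of at least 121.6. The difference in member width ranged from -4.0 to 330.75 bp without one library. The differences in score percentile (1.096 to 19.5) and in recovery (-41.3 to -8.83 points) kept their sign in all 10 and all 11 alternatives. Members differed from other peaks in the same direction in all alternatives run for score (5.68 to 22.1), width (-261.6 to -24.9 bp), sharing (2.58 to 6.10 points) and membership of the common regions (1.20 to 12.4 points). The higher recovery of member regions, for which alternatives were added after the data were seen, ranged from -0.29 to 6.14 points without one library and kept its sign in the other 9 of 10, and the excess in the top 1% of scores kept its sign in all 10 (18.8 to 32.6 points). Density differed by 1.15 peaks per Mb with the peak-free stretches left out, an alternative added after the data were seen, and kept its negative sign in the other 10. Windows separated by genotype numbered 2 with scores of at least 121.6, with equal list length and with narrower or wider windows, and 5 to 7 without one library. Member regions of one genotype numbered 0 at equal list length, 1 with narrower and 16 with wider windows, and 7 to 35 without one library. Common member regions separated by width numbered 1 at equal length and with narrower windows, 5 with wider windows and 7 to 18 without one library. Regions that only MT4 lacked numbered 3 with scores of at least 121.6 and 5 to 8 without one library. Fewer libraries or larger windows raise such counts by construction. No paired analysis was possible because the labels pair no mutated line with a wild-type culture. The limit of the score at 90 and the unknown depth bound every absence.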
